A study of Mus musculus with 18 samples.

Results

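The cytosolic heat shock genes described here are 10 genes of the cytosolic and nuclear protein-folding machinery: Hspa1a, Hspa1b, Hspa8, Hsph1, Dnajb1, Dnaja1, Hsp90aa1, Hsp90ab1, Bag3 and Hspb1. They were chosen by name, as the entries of the raw count tables whose Ensembl identifier carries one of these symbols in GENCODE vM21, and they are 10 of the 55471 genes in the tables. RNA had been sequenced from E14 cells, a mouse embryonic stem cell line, that were wild type (Wt) or deficient in GCN2 (Gcn), the kinase encoded by Eif2ak4 that is activated by uncharged tRNA. Each genotype was deprived of arginine (Wt Arg, Gcn Arg) or of leucine (Wt Leu, Gcn Leu) for 3 h, or was given all amino acids (Wt Unstarved, Gcn Unstarved), with 3 libraries in each of the 6 groups. All 6 groups had been plated on gelatin in serum and leukaemia inhibitory factor and were then moved to SILAC medium with dialyzed serum, so the unstarved cells had the same change of medium. The Gcn cells are given as 1 genotype with no statement of how many clones it holds, and genotype and the history of the line cannot be told apart.

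As background, HSP70 chaperones bind unfolded stretches of protein in a cycle driven by ATP: J-domain proteins (HSP40) deliver the client and start hydrolysis, and exchange factors such as the HSP110 and BAG proteins release the nucleotide. HSP90 takes over clients at a later stage of folding, and small heat shock proteins hold unfolding proteins without using ATP. In mammals the inducible members are the classical targets of the transcription factor HSF1, which binds repeated GAA units when unfolded protein accumulates, while Hspa8 and Hsp90ab1 are made at high levels in unstressed cells.

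The libraries held 14.8 to 38.8 M counts (mega counts), and the 10 genes took 0.877% to 1.09% of each. Levels are given as CPM, a gene's count per M counts of its library, after TMM scaling, which evens out differences in composition between libraries. Eif2ak4, the targeted gene, lay between 27 and 33.4 CPM in the 9 Wt libraries and between 4.04 and 6.37 CPM in the 9 Gcn libraries. All 9 embryonic stem cell markers had a mean of at least 1 CPM in every group. Their summed level per library was 6639.6 to 8010.5 CPM in Wt and 7764.7 to 9184 CPM in Gcn. The summed level of 9 fibroblast markers was 17.4 to 30.1 CPM in Wt and 7.97 to 11.6 CPM in Gcn, with Lum and Postn at or near 0 in both genotypes. Gm42418, a gene that overlaps ribosomal RNA sequence, took 0.224% to 1.39% of the counts in Wt and 0.813% to 3.97% in Gcn. The 3 Gcn libraries numbered 1 deviated from their group means together, with r across genes of 0.448 to 0.485. With differently numbered libraries of the other Gcn groups r was -0.383 to -0.151. Deviations within a group sum to 0, so the negative values follow in part from the positive ones. Gcn Arg 2 and Gcn Leu 2 reached 0.419. Within Gcn Arg, library 2 differed most by chi-square per gene (35.7 from Gcn Arg 1 and 23.3 from Gcn Arg 3, against 12.7 between those libraries).

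Hspa1a and Hspa1b encode the stress-inducible HSP70 and are close copies on the minus strand of chromosome 17 (GRCm38), Hspa1a at chr17:34969190-34972156 and Hspa1b at chr17:34956436-34959238. Of all stretches of 43 bases, the length of a read, in the Hspa1a transcripts, 60.6% also occur in Hspa1b, and 64.2% of those of Hspa1b occur in Hspa1a. Whether reads that fit both were counted, and for which copy, is not given in the sources used here, so the level of each copy is uncertain and the sum of both is given as well. The likeness goes on upstream of the genes. The 250 bases before the RefSeq start (GRCm38.p6, minus strand) are shown for both copies because they hold a pair of inverted HSF1 units in the same place, in capitals, and for Dnajb1 and Bag3 (plus strand) because those genes moved with and apart from the Hspa1 genes, respectively:
Hspa1a, chr17:34972157-34972406: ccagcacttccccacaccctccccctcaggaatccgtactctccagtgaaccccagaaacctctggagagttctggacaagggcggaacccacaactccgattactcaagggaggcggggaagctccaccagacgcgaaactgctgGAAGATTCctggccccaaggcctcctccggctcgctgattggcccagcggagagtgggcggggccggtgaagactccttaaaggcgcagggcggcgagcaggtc
Hspa1b, chr17:34959239-34959488: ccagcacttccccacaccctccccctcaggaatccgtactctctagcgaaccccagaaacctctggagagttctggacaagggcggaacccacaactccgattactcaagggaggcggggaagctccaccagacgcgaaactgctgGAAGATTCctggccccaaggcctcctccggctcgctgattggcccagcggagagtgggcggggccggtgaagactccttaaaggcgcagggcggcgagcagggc
Dnajb1, chr8:83607925-83608174: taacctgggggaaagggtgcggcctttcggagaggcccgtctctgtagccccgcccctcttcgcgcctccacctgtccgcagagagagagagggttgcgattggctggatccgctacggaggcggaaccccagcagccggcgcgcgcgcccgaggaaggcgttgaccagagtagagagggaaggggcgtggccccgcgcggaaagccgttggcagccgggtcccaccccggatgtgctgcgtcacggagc
Bag3, chr7:128523333-128523582: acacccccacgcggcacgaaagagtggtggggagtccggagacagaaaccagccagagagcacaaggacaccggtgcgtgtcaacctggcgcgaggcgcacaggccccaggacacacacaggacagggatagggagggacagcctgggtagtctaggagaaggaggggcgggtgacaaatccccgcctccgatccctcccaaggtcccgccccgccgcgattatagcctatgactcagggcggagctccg

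The capitals mark GAAGATTC, a match to the searched pattern GAANNTTC, and it ends 97 bases before the start in both copies. The copies' windows are identical at 247 of 250 bases (98.8%). They differ by C44T, T47C and T249G, where the base of Hspa1a comes first, positions count from 1 at the window's first base, and the base of Hspa1b comes last. Either arrangement of the pair, GAANNTTC or TTCNNGAA, reads the same on both strands. It was present in 6 of the 11 RefSeq windows of 7 members, some of which have several starts and of which Hspa1a and Hspa1b are near-copies, against 4212 of all 32817 windows of that length (12.8%). The other members with a match were Hspb1 (GAAGTTTC and GAACCTTC), Hsph1 (TTCTCGAA) and Dnaja1 (GAAAATTC). Neither pattern was found in the windows of Dnajb1 and Bag3. A run of 3 such alternating units with the same spacing, which contains the shorter pattern, was in 0 of these 7 members and in 0.466% of all windows. Hspa8, Hsp90aa1 and Hsp90ab1 had no RefSeq window in the set used and were not searched. A match of letters is a description of these windows and says nothing of binding.

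The remaining members lie on other chromosomes or far from the Hspa1 pair (GRCm38, all protein-coding). Hspa8 is at chr9:40800984-40810087, Hsph1 at chr5:149614287-149636376, Dnajb1 at chr8:83608193-83612653, Dnaja1 at chr4:40722150-40737149, Hsp90aa1 at chr12:110690605-110702728, Hsp90ab1 at chr17:45567775-45573271, Bag3 at chr7:128523616-128546981 and Hspb1 at chr5:135887919-135889563. Several have processed copies elsewhere in the genome: 55.7% of the 43-base stretches of Hspa8, 60% of Hsp90aa1, 53.8% of Hspb1 and 29.5% of Dnaja1 occur in another gene, but 0 of Hsph1 and Bag3. The copy that took most counts was Gm15459, a processed pseudogene of Hspa8 with 426.9 to 766.6 CPM. Gm26825, a non-coding gene with 46.9% of the stretches of Hspa8, was not used here. Adding the counts of such copies to their parent gene, a step chosen after seeing the data, left the number of members called in each comparison the same. Dnaja1 overlaps Smu1 on the other strand over 608 bases, Bag3 overlaps 2610306O10Rik on its own strand over 612 bases and Hspa1a overlaps Gm20481 (0 to 1 counts per library) on the other strand over 2225 bases. The strand setting of the counting is not given in the sources used here.

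The members spanned a wide range of levels. Per kilobase of exon, the mean in Wt Unstarved was 2043.2 CPM for Hsp90ab1, the constitutive HSP90, 551.2 for Hsp90aa1, its inducible partner, and 290.2 for Hspa8, the constitutive HSP70. On the same scale Hspb1, the small heat shock protein HSP27 (HSP25 in mouse), stood at 252.9. The J-domain and HSP110 genes formed a middle tier on that scale, with Dnajb1 at 43.9, Hsph1 at 30.4 and Dnaja1 at 29.3, followed by Bag3 at 6.47. The inducible pair was lowest, at 0.92 for Hspa1b and 0.347 for Hspa1a. Hspa1a rested on 7 to 45 counts per library and Hspa1b on 17 to 149, so their values carry the largest counting error. The divisor is the whole exon length, also for members that share stretches with other genes. Whether reads from such stretches were counted is not given, so levels per kb of these members are uncertain.

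**Figure D1:**
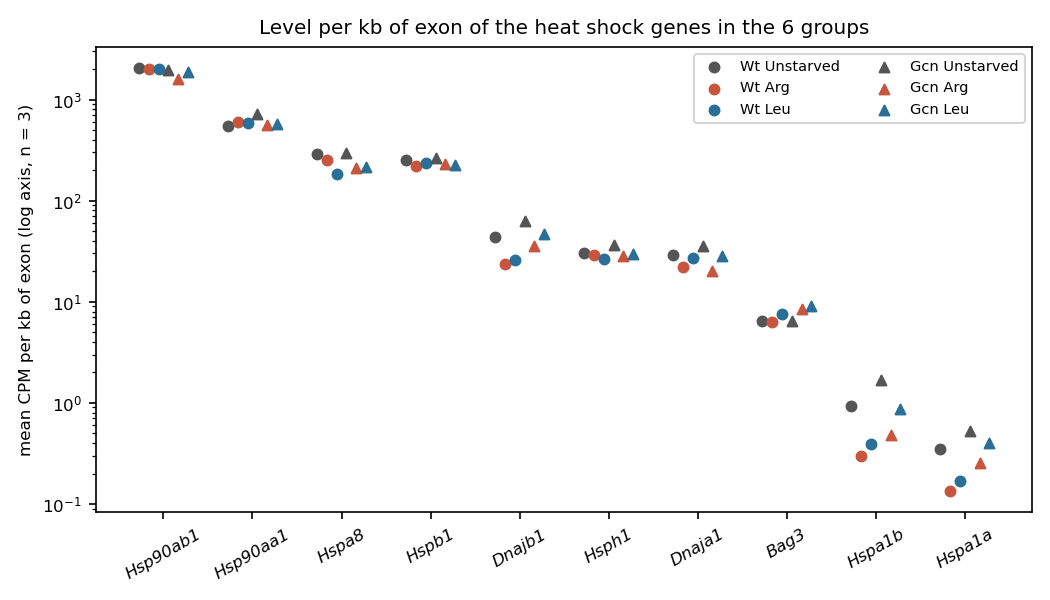
Mean level per kilobase of exon (CPM per kb, log axis) of the 10 cytosolic heat shock genes in each of the 6 groups. In Wt Unstarved the level per kb runs from 0.347 for Hspa1a to 2043.2 for Hsp90ab1, and the inducible Hspa1 pair is lowest in every group.

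The first question put by the design is what 3 h without an amino acid did to these genes in each genotype. In the 4 comparisons of starved with unstarved cells, every member called was lower after starvation, except Bag3, which was higher in both starved Gcn groups. Hspa1b, Hspa8 and Dnajb1 were called lower in all 4 comparisons. Hspa1b was 3.08-fold lower in Wt Arg, 2.36-fold lower in Wt Leu, 3.6-fold lower in Gcn Arg and 1.94-fold lower in Gcn Leu, each against the unstarved cells of its genotype. A member counts as called at an adjusted p under 0.05 in edgeR's quasi-likelihood test with Benjamini-Hochberg adjustment over all genes tested, and every adjusted p below comes from that test unless another tool is named. In bulk RNA, fewer cells of a type and less RNA per cell cannot be told apart.

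In Wt Arg, 0 members were called higher and 6 lower, where 40.9% of all genes tested were called (20.9% higher and 20% lower). The median log2 fold change of the 10 members was -0.20, against -0.01 for all genes. Wt Leu had 0 members called higher and 4 lower, where 29.6% of all genes were called (15.5% higher, 14.1% lower), with a median of -0.16 against 0.01. Gcn Arg had 1 member called higher and 7 lower, where 28% of all genes were called (14.3% higher, 13.7% lower), with a median of -0.44 against -0.01. In Gcn Leu, 1 member was called higher and 4 lower, where 21.8% of all genes were called (11.7% higher, 10% lower), with a median of -0.32 against 0. The same-numbered Gcn libraries were counted as paired, with limits described with the processing. With the number as a block 10 members were called in Gcn Arg (1 higher, 9 lower) and 8 in Gcn Leu (1 higher, 7 lower). Of the 16369 genes tested, 7602 were called with that block in Gcn Arg (3643 higher, 3959 lower). In Gcn Leu 6651 were called with it (3348 higher, 3303 lower). The same block was run in Wt, although Wt Unstarved was not counted as paired. There 6 members were called in Wt Arg (0 higher, 6 lower) and 6 in Wt Leu (0 higher, 6 lower). Of the 16140 genes tested in Wt, 8094 were called with it in Wt Arg (4025 higher, 4069 lower). In Wt Leu 6555 were called with it (3287 higher, 3268 lower). Both starved groups of a genotype share its unstarved libraries, so their values are set side by side and are not independent.

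**Figure D2:**
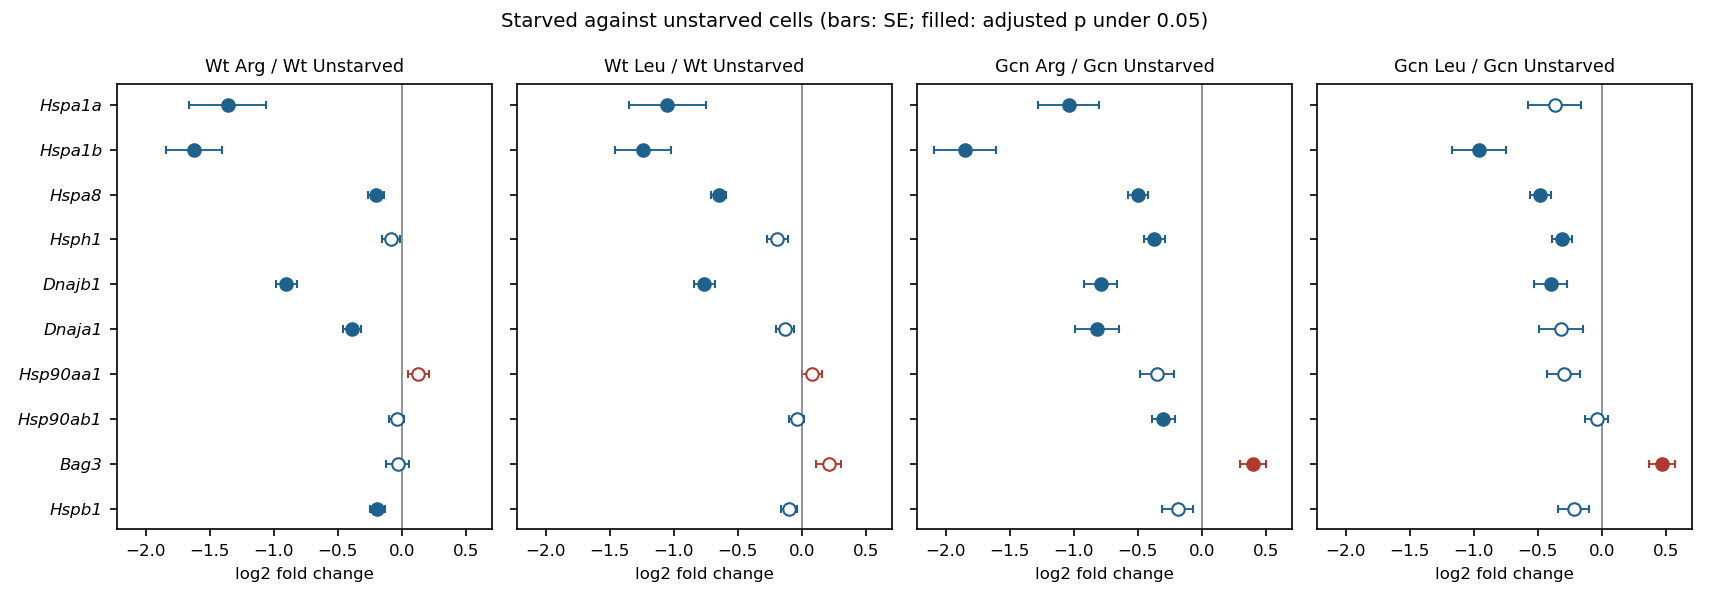
Log2 fold change of each cytosolic heat shock gene (points, with bars of 1 SE) in the 4 comparisons of starved with unstarved cells, with filled symbols for adjusted p under 0.05. All members but Hsp90aa1 and Bag3 lie left of 0 throughout. Bag3 lies right of 0 in both Gcn comparisons (0.40 and 0.47) and, not called, in Wt Leu (0.21).

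The inducible HSP70 pair moved most. Hspa1b stood at 2.75, 2.85 and 2.14 CPM in the Wt Unstarved libraries, at 1.02, 0.765 and 0.727 CPM in Wt Arg and at 1.41, 1.1 and 0.789 CPM in Wt Leu. In the Gcn libraries it stood at 3.83, 5.51 and 4.85 CPM unstarved, at 0.983, 1.4 and 1.62 CPM in Gcn Arg and at 1.84, 2.91 and 2.5 CPM in Gcn Leu. Every starved library was below every unstarved library of its genotype. The log2 fold change of Hspa1b was -1.62 (SE 0.22, adjusted p = 2.25e-05) in Wt Arg and -1.24 (SE 0.22, adjusted p = 0.000465) in Wt Leu. In Gcn Arg it was -1.85 (SE 0.24, adjusted p = 8.65e-05) and in Gcn Leu -0.96 (SE 0.21, adjusted p = 0.00532). Over the 6 groups Gcn Unstarved was highest with 4.73 ± 0.845 CPM (SD, n = 3), clear of Wt Unstarved with 2.58 ± 0.382. Gcn Leu with 2.42 ± 0.537 overlapped Wt Unstarved and was clear of Gcn Arg with 1.33 ± 0.323. Wt Leu with 1.1 ± 0.31 overlapped Gcn Arg above it and Wt Arg with 0.839 ± 0.162 below it.

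Hspa1a, the other copy, stood at 1.27, 0.743 and 1.07 CPM in Wt Unstarved, 0.494, 0.429 and 0.268 CPM in Wt Arg and 0.563, 0.485 and 0.464 CPM in Wt Leu. The Gcn libraries held 1.61, 1.55 and 1.53 CPM unstarved, 0.556, 0.877 and 0.843 CPM in Gcn Arg and 1.1, 1.36 and 1.14 CPM in Gcn Leu. Here too no starved library reached an unstarved library of its genotype. Hspa1a fell in Wt Arg (log2 fold change -1.36, SE 0.30, adjusted p = 0.00147), in Wt Leu (-1.05, SE 0.30, adjusted p = 0.0128) and in Gcn Arg (-1.04, SE 0.24, adjusted p = 0.00587), while in Gcn Leu the change of -0.37 (SE 0.21, adjusted p = 0.242) did not pass. The Wt Leu call was lost without Wt Unstarved 1 (-0.84, adjusted p = 0.0795) or Wt Leu 2 (-1.01, adjusted p = 0.0502), and the Gcn Arg call without the 3 Gcn libraries numbered 1 (-0.82, adjusted p = 0.0521). Over the 6 groups Gcn Unstarved (1.56 ± 0.0433 CPM, SD, n = 3) was again clear of the next, and from Gcn Leu (1.2 ± 0.139) through Wt Unstarved (1.03 ± 0.268), Gcn Arg (0.758 ± 0.176) and Wt Leu (0.504 ± 0.0523) to Wt Arg (0.397 ± 0.117) each overlapped its neighbour.

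With the counts of both copies summed, so that it no longer matters which copy a shared read was given to, the HSP70 pair fell in all 4 comparisons. If shared reads were not counted at all, the sum rests on the stretches in which the copies differ. The log2 fold change of the sum was -1.55 (SE 0.20, adjusted p = 1.02e-05) in Wt Arg, -1.18 (SE 0.19, adjusted p = 0.000235) in Wt Leu, -1.60 (SE 0.21, adjusted p = 8.43e-05) in Gcn Arg and -0.79 (SE 0.19, adjusted p = 0.00805) in Gcn Leu.

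Hspa8, the constitutive HSP70 (HSC70), also fell in all 4 comparisons, by less in log2 terms than the summed pair. It stood at 1201.5, 1290.8 and 1252.6 CPM in Wt Unstarved, 1134.7, 1036.1 and 1091.3 CPM in Wt Arg and 790.9, 813.8 and 780.2 CPM in Wt Leu. Among Gcn libraries the levels were 1319.4, 1304.1 and 1234.7 CPM unstarved, 862.5, 936.9 and 905.6 CPM in Gcn Arg and 896.9, 972.4 and 877.4 CPM in Gcn Leu. The 3 Wt Leu libraries were the lowest of all 18, Wt Arg lay between them and the unstarved libraries with no overlap on either side, and both starved Gcn groups overlapped each other. For Hspa8 the log2 fold change was -0.20 (SE 0.06, adjusted p = 0.012) in Wt Arg, -0.65 (SE 0.06, adjusted p = 6.5e-07) in Wt Leu, -0.50 (SE 0.08, adjusted p = 0.000624) in Gcn Arg and -0.48 (SE 0.08, adjusted p = 0.00129) in Gcn Leu. The Wt Arg call was lost without Wt Arg 2 (-0.16, adjusted p = 0.0642). The pseudogene Gm15459, which holds 47.8% of the 43-base stretches of Hspa8, had a log2 fold change of -0.16 (adjusted p = 0.0683) in Wt Arg, -0.67 (adjusted p = 2.4e-06) in Wt Leu, -0.42 (adjusted p = 0.00413) in Gcn Arg and -0.47 (adjusted p = 0.00258) in Gcn Leu.

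**Figure D3:**
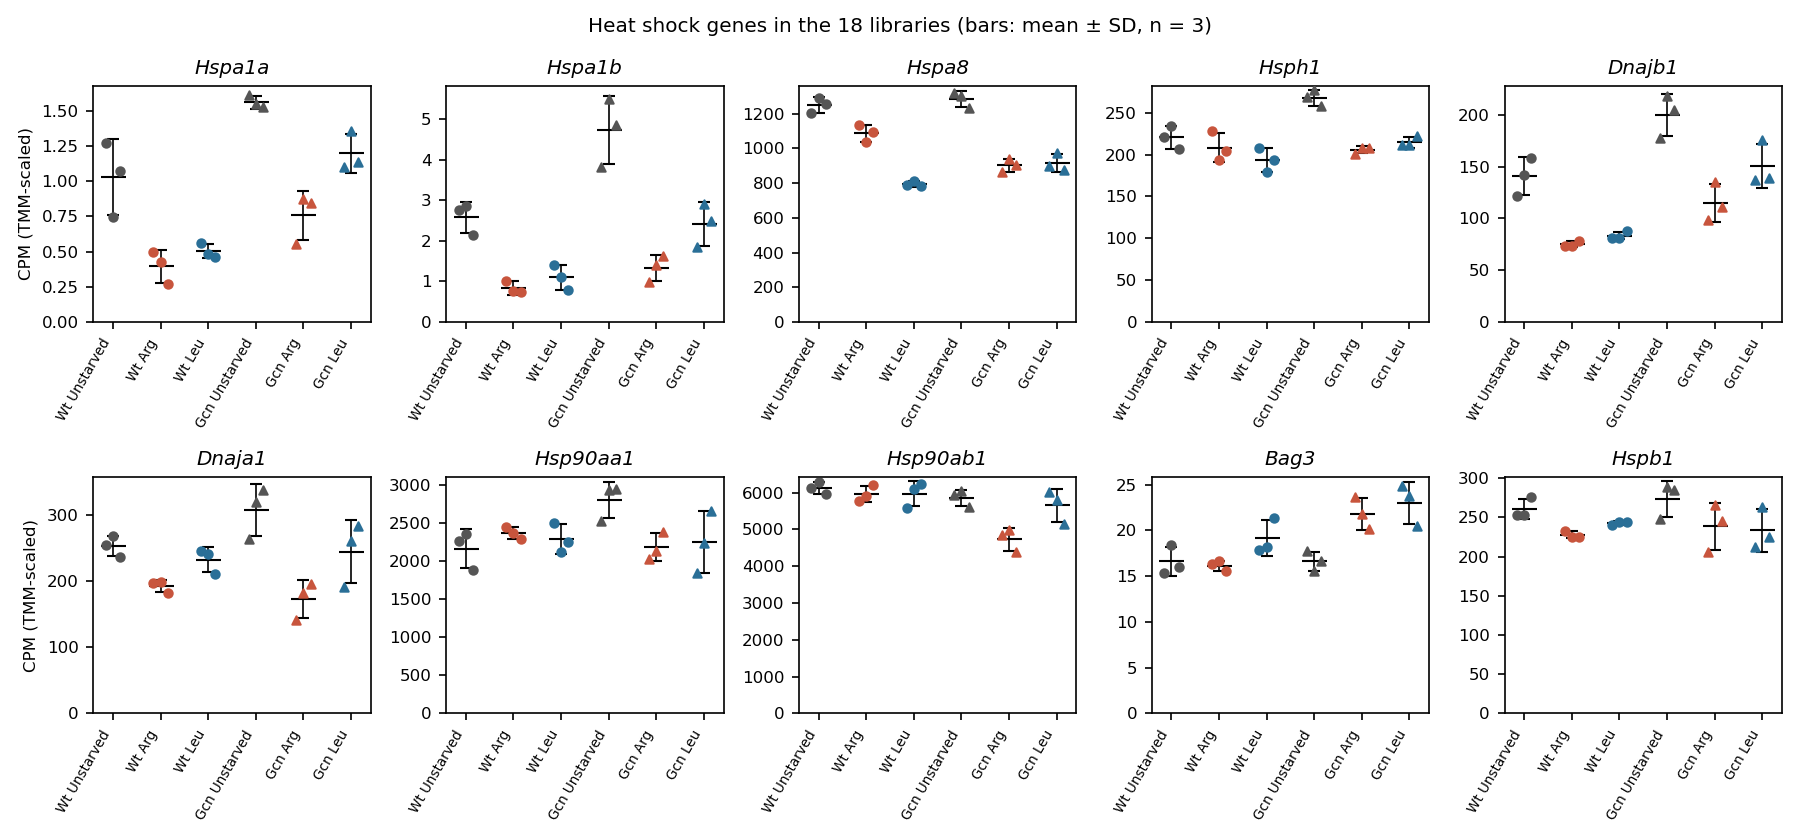
CPM of each cytosolic heat shock gene in each library (circles Wt, triangles Gcn, with the group mean and SD, n = 3) over the 6 groups, 1 panel per gene with its own axis. All members but Hsp90ab1 and Bag3 have their highest mean in Gcn Unstarved, which overlaps the next group for Hspa8, Dnaja1 and Hspb1. Hspa8 is lowest in Wt Leu (795 ± 17.2 CPM), and Bag3 is highest in the starved Gcn groups.

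The J-domain proteins activate HSP70, and Dnajb1 (HSP40, the stress-inducible one) fell in every starved group. It stood at 121.7, 141.6 and 158.5 CPM in Wt Unstarved, 73.1, 73.7 and 78.4 CPM in Wt Arg and 81.2, 81.2 and 87.5 CPM in Wt Leu. In Gcn the levels were 177.5, 217.7 and 204.5 CPM unstarved, 98.8, 134.8 and 111.1 CPM in Gcn Arg and 137.2, 175.2 and 139 CPM in Gcn Leu. No starved group overlapped the unstarved group of its genotype, although Gcn Leu 2 (175.2 CPM) came close to Gcn Unstarved 1 (177.5 CPM). The log2 fold change of Dnajb1 was -0.90 (SE 0.08, adjusted p = 2.53e-07) in Wt Arg, -0.76 (SE 0.08, adjusted p = 3.87e-06) in Wt Leu, -0.79 (SE 0.13, adjusted p = 0.00074) in Gcn Arg and -0.40 (SE 0.13, adjusted p = 0.0451) in Gcn Leu. The Gcn Leu call was lost with scaling by library size alone (-0.32, adjusted p = 0.085) and without any 1 of Gcn Unstarved 2 (adjusted p = 0.148), Gcn Unstarved 3 (0.0905), Gcn Leu 1 (0.131) and Gcn Leu 3 (0.14). Gcn Leu (150.5 ± 21.5 CPM, SD, n = 3), Wt Unstarved (140.6 ± 18.4) and Gcn Arg (114.9 ± 18.3) overlapped in turn, and Wt Leu (83.3 ± 3.6) and Wt Arg (75.1 ± 2.91) lay below them and apart.

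Dnaja1, a J-domain protein with a role in general folding and mitochondrial import, was called lower after arginine deprivation. After leucine deprivation it was not called without a block, and this depended on the model. It stood at 254.3, 267.8 and 236.4 CPM in Wt Unstarved, 196.9, 197.8 and 181.6 CPM in Wt Arg and 244.7, 240.9 and 210 CPM in Wt Leu. In Gcn it stood at 263.8, 319.9 and 338.1 CPM unstarved, 141.4, 182 and 196.2 CPM in Gcn Arg and 190.4, 260.2 and 282.5 CPM in Gcn Leu. Both Arg groups were clear of their unstarved groups and both Leu groups overlapped theirs. The log2 fold change of Dnaja1 was -0.39 (SE 0.07, adjusted p = 0.000278) in Wt Arg and -0.82 (SE 0.17, adjusted p = 0.00369) in Gcn Arg, against -0.13 (SE 0.07, adjusted p = 0.197) in Wt Leu and -0.32 (SE 0.17, adjusted p = 0.21) in Gcn Leu. In all 3 Gcn groups the library numbered 1 was lowest, and with the number as a block the Gcn Leu value of -0.33 passed (adjusted p = 0.000131). With that block the Wt Leu value passed as well (-0.13, adjusted p = 0.0258). It was -0.28 (adjusted p = 4.37e-05) with a GC correction added, although Wt Unstarved and Wt Leu were not counted as paired.

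Hsph1, the HSP110 that exchanges nucleotide on HSP70, was called lower in the Gcn comparisons only, which is not a test of a difference between the genotypes. It stood at 220.6, 234.3 and 206.8 CPM in Wt Unstarved, 228, 193 and 204 CPM in Wt Arg and 207.9, 178.9 and 192.9 CPM in Wt Leu, and these groups overlapped. Its Gcn levels were 268.2, 276.6 and 258.1 CPM unstarved, 200.8, 208.1 and 208.3 CPM in Gcn Arg and 210.8, 210.8 and 221.8 CPM in Gcn Leu, with the unstarved libraries clear of all others. The log2 fold change was -0.08 (SE 0.07, adjusted p = 0.42) in Wt Arg, -0.19 (SE 0.08, adjusted p = 0.0632) in Wt Leu, -0.37 (SE 0.08, adjusted p = 0.00335) in Gcn Arg and -0.31 (SE 0.08, adjusted p = 0.0126) in Gcn Leu. The Wt Leu value passed with DESeq2 (adjusted p = 0.0494) and without a filter on low counts (0.0266), and the Gcn Leu call was lost without Gcn Unstarved 2 (0.0552).

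Bag3 links HSP70 to small heat shock proteins and to autophagy of aggregated protein, and was the 1 member called higher. Its levels were 15.3, 18.4 and 16 CPM in Wt Unstarved, 16.3, 16.6 and 15.6 CPM in Wt Arg and 17.9, 18.2 and 21.4 CPM in Wt Leu. In Gcn they were 17.7, 15.6 and 16.6 CPM unstarved, 23.6, 21.8 and 20.1 CPM in Gcn Arg and 24.8, 23.8 and 20.5 CPM in Gcn Leu, so all 6 starved Gcn libraries were above all 3 unstarved ones. For Bag3 the log2 fold change was 0.40 (SE 0.10, adjusted p = 0.00954) in Gcn Arg and 0.47 (SE 0.10, adjusted p = 0.00446) in Gcn Leu, or 1.32-fold and 1.39-fold. In Wt it was -0.03 (SE 0.09, adjusted p = 0.802) for arginine and 0.21 (SE 0.10, adjusted p = 0.11) for leucine, and the latter passed without Wt Unstarved 2 (0.29, adjusted p = 0.0453) and with the library number and a GC correction in the model (0.27, adjusted p = 0.0133). The Gcn Arg call was lost without Gcn Unstarved 2 (0.37, adjusted p = 0.0555). Wt Unstarved (16.6 ± 1.62 CPM) and Gcn Unstarved (16.6 ± 1.02 CPM, SD, n = 3 each) had the same mean.

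Hsp90aa1, the stress-inducible HSP90, stood at 2265.6, 2355.2 and 1879.6 CPM in Wt Unstarved, 2453.4, 2369.1 and 2292.7 CPM in Wt Arg and 2502.6, 2117.9 and 2249.9 CPM in Wt Leu. The Gcn libraries held 2526.4, 2931.4 and 2948.2 CPM unstarved, 2027.6, 2132.9 and 2384.5 CPM in Gcn Arg and 1849.8, 2245 and 2666.2 CPM in Gcn Leu. The Wt groups and Gcn Leu overlapped their unstarved groups, and Gcn Arg did not. No comparison was called: the log2 fold change was 0.13 (SE 0.08, adjusted p = 0.218) in Wt Arg, 0.08 (SE 0.08, adjusted p = 0.517) in Wt Leu, -0.35 (SE 0.13, adjusted p = 0.0648) in Gcn Arg and -0.30 (SE 0.13, adjusted p = 0.126) in Gcn Leu. With the library number as a block, the Gcn values of -0.35 (adjusted p = 0.000291) and -0.32 (adjusted p = 0.000882) both passed. In Gcn Arg, and in Gcn Leu, the library numbered 1 was the lowest of its group and the one numbered 3 the highest.

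Hsp90ab1, the most abundant member, stood at 6112.9, 6298.8 and 5971.1 CPM in Wt Unstarved, 5760.7, 5904 and 6193.6 CPM in Wt Arg and 5583.8, 6087.6 and 6240.6 CPM in Wt Leu. Among Gcn libraries the levels were 5924.9, 6038.3 and 5603.5 CPM unstarved, 4840.9, 4988.1 and 4387.5 CPM in Gcn Arg and 6023.6, 5787.3 and 5154.8 CPM in Gcn Leu. The 3 Gcn Arg libraries were the lowest of the 18, and the other 5 groups overlapped in turn. The log2 fold change in Gcn Arg was -0.30 (SE 0.09, adjusted p = 0.026), against -0.04 in each of Wt Arg (SE 0.06, adjusted p = 0.63), Wt Leu (SE 0.06, adjusted p = 0.673) and Gcn Leu (SE 0.09, adjusted p = 0.787). The Gcn Arg call was lost with scaling by library size alone (-0.18, adjusted p = 0.161), without the 3 Gcn libraries numbered 1 (0.0542), and without Gcn Unstarved 1 (0.0663) or 2 (0.0972) or Gcn Arg 1 (0.0536) or 3 (0.113).

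Hspb1 stood at 253.4, 253.1 and 275.8 CPM in Wt Unstarved, 233, 224.9 and 225.1 CPM in Wt Arg and 240.5, 244.6 and 244.5 CPM in Wt Leu. In Gcn it stood at 247.6, 288.8 and 284.4 CPM unstarved, 205.8, 265.2 and 244.9 CPM in Gcn Arg and 211.9, 263.8 and 224.6 CPM in Gcn Leu. Neither starved Wt group overlapped Wt Unstarved, and both starved Gcn groups overlapped Gcn Unstarved. Hspb1 was called lower in Wt Arg (log2 fold change -0.19, SE 0.06, adjusted p = 0.0112) and was not called in Wt Leu (-0.10, SE 0.06, adjusted p = 0.191), Gcn Arg (-0.19, SE 0.12, adjusted p = 0.261) or Gcn Leu (-0.22, SE 0.12, adjusted p = 0.208). The Wt Arg call was lost without Wt Unstarved 3 (-0.15, adjusted p = 0.0549) and with all 6 groups in the model (-0.20, adjusted p = 0.102), and the value turned to 0.05 (adjusted p = 0.404) with a correction for GC content and the library number in the model. With the number as a block alone, both Gcn values passed (-0.19, adjusted p = 0.0055, and -0.22, adjusted p = 0.00219), and with the GC correction added the Gcn Arg value was -0.06 (adjusted p = 0.293).

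Summed over the 10 genes, and so set mainly by Hsp90ab1, Hsp90aa1 and Hspa8, the level was 10751 to 11399.5 CPM in Gcn Unstarved, 8403 to 8872 CPM in Gcn Arg and 9548.3 to 9942.7 CPM in Gcn Leu, 3 ranges that do not overlap. In Wt Arg it was 10016.4 to 10283.3 CPM and in Wt Leu 9671.5 to 10028.3 CPM, both overlapping Wt Unstarved, which ran up to 10863.6 CPM. In Gcn the summed level of 13 differentiation markers also moved with starvation, from 76.9 to 89.1 CPM unstarved to 131.2 to 153 CPM in Gcn Arg and 101.4 to 121 CPM in Gcn Leu, and its part in the members' values was not tested.

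Arginine and leucine deprivation were then compared directly within each genotype. Between Wt Leu and Wt Arg, 1 member was called higher in Wt Leu and 1 lower, where 10% of all genes were called (5.25% higher, 4.76% lower), with a member median of 0.12 against 0. Hspa8 was 1.37-fold lower in Wt Leu (log2 fold change -0.46, SE 0.06, adjusted p = 0.000115), and Gm15459 had a like value (-0.51, adjusted p = 0.00015). Dnaja1 was higher in Wt Leu (0.27, SE 0.07, adjusted p = 0.0231), a call lost without Wt Arg 2 (0.0526), Wt Arg 3 (0.107), Wt Leu 1 (0.0765) or Wt Leu 2 (0.0867). These groups were counted as paired by number, and with the block 3 members were called, Bag3 being added (0.24, adjusted p = 0.0422). With that block 3328 of the 16140 genes tested were called (1717 higher, 1611 lower).

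Between Gcn Leu and Gcn Arg, 1 member was called higher in Gcn Leu and 0 lower, where 8.52% of all genes were called (4.64% higher, 3.88% lower), with a member median of 0.16 against 0. That member was Hspa1b (log2 fold change 0.89, SE 0.25, adjusted p = 0.0416), and the summed Hspa1 pair gave 0.81 (SE 0.21, adjusted p = 0.0304). The call of Hspa1b alone was lost with limma-voom (0.0644), with only the compared groups in the model (0.0627), and without Gcn Arg 1 (0.145), 2 (0.085) or 3 (0.0614) or Gcn Leu 2 (0.144) or 3 (0.11). With the library number as a block, by which these groups were counted as paired, 5 members were called and all were higher in Gcn Leu: Hspa1a (0.67, adjusted p = 0.0443), Hspa1b, Dnajb1 (0.39, adjusted p = 7.05e-05), Dnaja1 (0.49, adjusted p = 8.37e-06) and Hsp90ab1 (0.25, adjusted p = 0.000677). Of the 16369 genes tested, 4362 were called with that block (2350 higher, 2012 lower).

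The second question is how cells without GCN2 differed from wild-type cells. In complete medium, 4 members were called higher in Gcn Unstarved than in Wt Unstarved and 0 lower, where 32.8% of all genes were called (16.6% higher, 16.2% lower), and the member median was 0.28 against 0. Hspa1b was 1.83-fold higher (log2 fold change 0.87, SE 0.20, adjusted p = 0.00171) and Dnajb1 1.42-fold higher (0.51, SE 0.11, adjusted p = 0.00159), each with every Gcn library above every Wt library. Hsph1 was higher by 0.28 (SE 0.07, adjusted p = 0.00583) and Hsp90aa1 by 0.37 (SE 0.11, adjusted p = 0.0126), likewise without overlap. Hspa1a, at 0.59 (SE 0.23, adjusted p = 0.0508), did not pass alone, and the summed Hspa1 pair did (0.80, SE 0.18, adjusted p = 0.00135). Dnaja1 differed by 0.28 (SE 0.13, adjusted p = 0.108), and passed without the 3 Gcn libraries numbered 1 (0.37, adjusted p = 0.00091). The constitutive genes Hspa8 (0.04, adjusted p = 0.676) and Hsp90ab1 (-0.07, adjusted p = 0.556), Bag3 (0.01, adjusted p = 0.979) and Hspb1 (0.07, adjusted p = 0.608) were not called. The Hsp90aa1 call was lost without Wt Unstarved 3 (0.0876) or Gcn Unstarved 2 (0.0567) or 3 (0.0534) and with the library number and a GC correction in the model (0.22, adjusted p = 0.0598), a setting in which Hspa1a (0.76, adjusted p = 0.014) and Hspb1 (0.25, adjusted p = 0.00999) passed and Dnaja1 came to 0.04 (adjusted p = 0.763). Hspa1a also passed with limma-voom (0.61, adjusted p = 0.0432) and without Wt Unstarved 1 (0.79, adjusted p = 0.0313). The levels of fibroblast markers and of Gm42418, given above, also differed between the genotypes, and their part in these values was not tested.

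The starved genotypes were also set against each other, a pair of comparisons added after seeing the data. In Gcn Leu, 4 members were called higher than in Wt Leu and 0 lower, where 31.1% of all genes were called (14.4% higher, 16.7% lower). They were Hspa1a (log2 fold change 1.24, SE 0.26, adjusted p = 0.000823), Hspa1b (1.14, SE 0.24, adjusted p = 0.000734), Dnajb1 (0.85, SE 0.12, adjusted p = 7.16e-06) and Hspa8 (0.20, SE 0.07, adjusted p = 0.0228). Hspa1a, Hspa1b, Dnajb1 and Hspa8 were each higher in all 3 Gcn Leu libraries than in any Wt Leu library. The Hspa8 call was lost without Wt Leu 1 (0.0644), Wt Leu 3 (0.0631) or Gcn Leu 2 (0.117). Bag3, at 0.26 (SE 0.10, adjusted p = 0.0509), lay at the threshold.

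In Gcn Arg against Wt Arg, 3 members were called higher and 2 lower, where 31.5% of all genes were called (14.8% higher, 16.7% lower). Dnajb1 (0.61, SE 0.12, adjusted p = 0.00031), Hspa1a (0.90, SE 0.30, adjusted p = 0.0257) and Bag3 (0.44, SE 0.10, adjusted p = 0.00214) were higher. Hspa8 (-0.27, SE 0.07, adjusted p = 0.0033) and Hsp90ab1 (-0.33, SE 0.08, adjusted p = 0.00176), the constitutive pair, were lower. The Hspa1a call was lost with DESeq2 (0.0573), without a filter on low counts (0.0802) and without Wt Arg 2 (0.0501) or 3 (0.115) or Gcn Arg 2 (0.14) or 3 (0.0713). Hspa1b, at 0.64 (SE 0.28, adjusted p = 0.0842), did not pass, but the summed pair did (0.73, adjusted p = 0.0183).

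**Figure D4:**
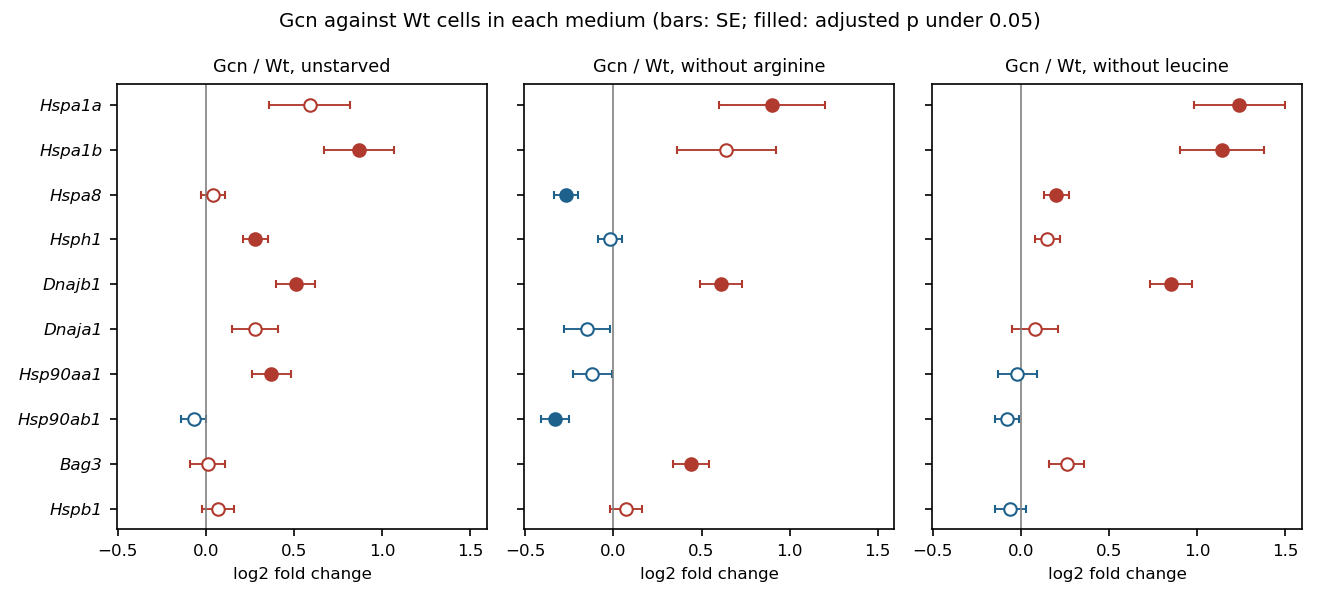
Log2 difference of each cytosolic heat shock gene between genotypes (Gcn minus Wt, bars of 1 SE) in unstarved, arginine-deprived and leucine-deprived cells. Filled symbols mark adjusted p under 0.05. Dnajb1 is higher in Gcn in all 3 conditions (0.51, 0.61 and 0.85).

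Whether the response to starvation itself differed between the genotypes was tested as an interaction, the log2 change in Gcn minus that in Wt. For arginine 0 members were called, where 2.3% of all genes were (0.62% or 105 genes higher, 1.68% or 285 lower), and for leucine 0, where 0.821% of all genes were (0.154% or 26 genes higher, 0.668% or 113 lower). Before adjustment, 6 members were under 0.05 for arginine and 2 for leucine. DESeq2 called 2 and 0 members, and limma-voom called 0 in each. The arginine interaction was -0.31 for Hspa8 (SE 0.09, adjusted p = 0.0823), -0.49 for Hsp90aa1 (SE 0.16, adjusted p = 0.103), 0.43 for Bag3 (SE 0.15, adjusted p = 0.122) and -0.30 for Hsph1 (SE 0.11, adjusted p = 0.144). It was -0.26 for Hsp90ab1 (SE 0.11, adjusted p = 0.201) and -0.43 for Dnaja1 (SE 0.18, adjusted p = 0.24). For leucine the values with the lowest p were Hsp90aa1 with -0.39 (SE 0.16, adjusted p = 0.26) and Dnajb1 with 0.34 (SE 0.16, adjusted p = 0.356). The summed Hspa1 pair gave -0.06 (adjusted p = 0.954) for arginine and 0.38 (adjusted p = 0.578) for leucine. The library number was also used as a block within each genotype, by which the Gcn groups but not all Wt groups were counted as paired. With that block 6 members passed for arginine, where 2505 of the 16924 genes tested did (1000 higher, 1505 lower). These members were Dnaja1 (-0.44, adjusted p = 7.1e-05), Hsp90aa1 (-0.49, adjusted p = 0.00151), Hspa8 (-0.31, adjusted p = 0.00304), Hsp90ab1 (-0.26, adjusted p = 0.0108), Hsph1 (-0.29, adjusted p = 0.012) and Bag3 (0.43, adjusted p = 0.0133). For leucine 3 members passed with that block, where 1878 of all genes tested did (749 higher, 1129 lower). They were Dnajb1 (0.33, adjusted p = 0.00826), Hsp90aa1 (-0.41, adjusted p = 0.00909) and Dnaja1 (-0.22, adjusted p = 0.0343). Whether the responses of these members differed thus depends on the block, and a p that misses the threshold does not show that the responses were alike.

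The transcription factors that act on these genes were measured in the same libraries. Hsf1 RNA, at 49.1 to 74.9 CPM, was not called in any starved group against its unstarved group: the log2 fold change was 0.01 (adjusted p = 0.914) in Wt Arg, -0.15 (adjusted p = 0.0867) in Wt Leu, 0.18 (adjusted p = 0.142) in Gcn Arg and -0.26 (adjusted p = 0.051) in Gcn Leu. It was lower in Gcn Leu than in Gcn Arg (-0.44, SE 0.09, adjusted p = 0.00726). Hsf2, a related factor, stood at 55, 57.5 and 49 CPM in Wt Unstarved, 72, 71.6 and 67.4 CPM in Wt Arg and 55, 53.1 and 53.8 CPM in Wt Leu. It rose in Wt Arg (0.39, SE 0.07, adjusted p = 0.00022), where all 3 libraries were above those of both other Wt groups, and was at 0 (adjusted p = 0.998) in Wt Leu and 0.22 (adjusted p = 0.0824) in Gcn Arg. Of the 5 genes of the heat shock factor list (Hsf1, Hsf2, Hsf4, Hsf5 and Hsbp1), the others called were Hsf4, higher in Gcn Arg (1.10, SE 0.31, adjusted p = 0.0178) and lower in Gcn Unstarved against Wt Unstarved (-0.96, SE 0.28, adjusted p = 0.0109).

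The partners of the members were taken from lists of the chaperone network. Of 19 HSP70 and HSP90 co-chaperones, 2 were called higher and 9 lower in Wt Arg (median log2 fold change -0.19), 0 and 10 in Wt Leu (-0.19), 1 and 5 in Gcn Arg (-0.17) and 0 and 2 in Gcn Leu (-0.12). The share of the co-chaperones called was 57.9%, 52.6%, 31.6% and 10.5% in that order, against 40.9%, 29.6%, 28% and 21.8% of all genes tested, the background also for the other lists below. Among them Ahsa1, which stimulates the ATPase of HSP90, fell in Wt Arg (-0.41, SE 0.06, adjusted p = 5.44e-05) and in Gcn Arg (-0.50, SE 0.11, adjusted p = 0.00322). Bag2, an exchange factor of HSP70, fell in Wt Arg (-0.44, SE 0.11, adjusted p = 0.00435) and Wt Leu (-0.49, SE 0.11, adjusted p = 0.00385). Fkbp4 and Ptges3 (p23), which act in the HSP90 cycle, fell in Gcn Arg (-0.42, SE 0.11, adjusted p = 0.0116, and -0.39, SE 0.10, adjusted p = 0.0105), and Ppid, a peptidyl-prolyl isomerase bound to HSP90, fell in Wt Leu (-0.32, SE 0.07, adjusted p = 0.00244) and in Gcn Leu (-0.40, SE 0.14, adjusted p = 0.0495). Of 16 other cytosolic J-domain genes, 3 were higher and 6 lower in Wt Arg, 2 and 2 in Wt Leu, 2 and 4 in Gcn Arg and 0 and 1 in Gcn Leu (56.2%, 25%, 37.5% and 6.25% called). Dnajb5 fell in Wt Arg (-0.51, SE 0.10, adjusted p = 0.000778), Wt Leu (-0.81, SE 0.11, adjusted p = 2.84e-05) and Gcn Leu (-0.47, SE 0.13, adjusted p = 0.019), while in Gcn Arg Dnajb2 rose (0.77, SE 0.13, adjusted p = 0.000633) and Dnaja2 fell (-0.66, SE 0.10, adjusted p = 0.00022).

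The other HSP70, HSP110 and small heat shock genes (11 of 12 tested) went both ways: 3 higher and 2 lower in Wt Arg, 1 and 2 in Wt Leu, 2 and 3 in Gcn Arg, and 0 and 2 in Gcn Leu (45.5%, 27.3%, 45.5% and 18.2% called). Hspa2, an HSP70 best known from germ cells, fell in all 4 comparisons, with log2 fold changes of -1.04 (adjusted p = 2.2e-05), -0.94 (adjusted p = 0.000137), -0.70 (adjusted p = 0.00688) and -0.74 (adjusted p = 0.00493) in that order. Hspb6, a small heat shock gene, rose in Wt Arg (1.46, SE 0.12, adjusted p = 1.38e-07), Wt Leu (1.18, SE 0.13, adjusted p = 4.12e-06) and Gcn Arg (0.48, SE 0.15, adjusted p = 0.0313). Hspb8, the small heat shock protein that binds BAG3, rose in Wt Arg (0.53, SE 0.10, adjusted p = 0.00035) and Gcn Arg (0.86, SE 0.12, adjusted p = 0.000106). Of 9 other heat-inducible genes, 1 was higher and 2 lower in Wt Arg, 2 and 1 in Wt Leu, 0 and 2 in Gcn Arg and 1 and 2 in Gcn Leu (33.3%, 33.3%, 22.2% and 33.3% called). Among these Hmox1, haem oxygenase, fell in Wt Arg (-0.22, SE 0.06, adjusted p = 0.00453), in Wt Leu (-0.73, SE 0.06, adjusted p = 1.82e-07) and in both Gcn comparisons (-0.68, adjusted p = 0.000536, and -0.79, adjusted p = 0.000291), and Zfand2a, a classical HSF1 target, rose in Wt Leu (0.33, SE 0.07, adjusted p = 0.0029) and Gcn Leu (0.45, SE 0.08, adjusted p = 0.00135).

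The chaperones of other machines and compartments were counted in the same way. Of 14 genes of the TRiC chaperonin and prefoldin, which fold actin and tubulin, 1 was higher and 6 lower in Wt Arg, 0 and 2 in Wt Leu, 0 and 3 in Gcn Arg, and 0 in either direction in Gcn Leu (50%, 14.3%, 21.4% and 0% called). Of 9 mitochondrial chaperone and protease genes, 1 was higher and 3 lower in Wt Arg, 1 and 1 in Wt Leu, 0 and 3 in Gcn Arg, and 0 and 1 in Gcn Leu (44.4%, 22.2%, 33.3% and 11.1% called). Of 16 ER chaperone genes, 3 were higher and 3 lower in Wt Arg, 5 and 2 in Wt Leu, 1 and 7 in Gcn Arg, and 0 and 4 in Gcn Leu (37.5%, 43.8%, 50% and 25% called). Hspa5, the ER member of the HSP70 family (BiP), fell in all 4, with log2 fold changes of -0.31 (adjusted p = 0.00805), -0.32 (adjusted p = 0.01), -0.83 (adjusted p = 0.000167) and -0.87 (adjusted p = 0.000204). In the comparison of unstarved genotypes, 32.8% of all genes tested were called (16.6% higher, 16.2% lower). There 14 of the 16 ER chaperone genes were higher in Gcn and 0 lower (87.5% called, median 0.46), and 0 of the 9 mitochondrial genes were called. Of the 19 co-chaperones 4 were higher and 5 lower (47.4% called), Bag2 being lowest (-1.08, SE 0.13, adjusted p = 8.57e-07).

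**Figure D5:**
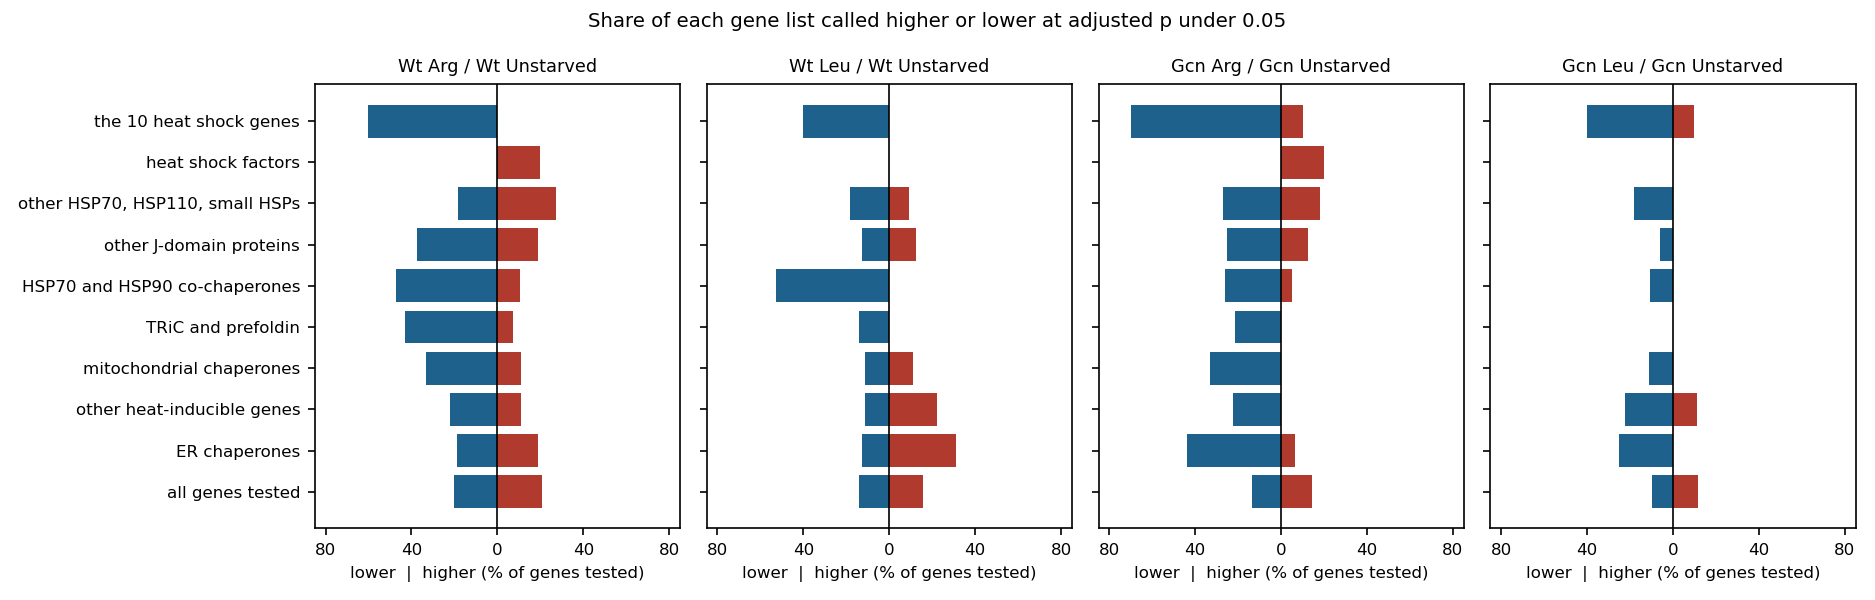
Percent of the genes tested that were called higher and lower (adjusted p under 0.05) in the 4 comparisons of starved with unstarved cells. Bars are given for the 10 members, each list of the chaperone network and all genes tested. Calls among co-chaperones are mostly lower after starvation (9 of 19 in Wt Arg, 10 of 19 in Wt Leu).

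The members did not all share 1 pattern over the 18 libraries. Pearson's r between a gene's log2 CPM and the mean of the members' standardised log2 CPM, of which each member is a part, was 0.96 for Hspa1b, 0.893 for Dnajb1, 0.862 for Hsph1, 0.856 for Dnaja1 and 0.849 for Hspa1a. It was lower for Hspb1 (0.736), Hspa8 (0.68) and Hsp90aa1 (0.564), lowest of the abundant genes for Hsp90ab1 (0.244), and below 0 for Bag3 (-0.257). Each pair among Hspa1a, Hspa1b and Dnajb1 correlated at 0.92, and of these Hspa1a and Hspa1b share reads. The 5 other genes most like the mean pattern were AI506816 (0.928), Camta1 (0.926), Crnde (0.923), Ubfd1 (0.919) and Gm44777 (0.912). With each gene centred within each genotype, so that the mean difference between genotypes no longer counted, the 5 were Ina (0.965), Kansl2 (0.951), Arpc2 (0.95), Ints13 (0.95) and Fndc4 (0.947), and 0 genes were in both sets. Among the members, Hsp90ab1 then came to 0.634, above Hsp90aa1 (0.509), and Bag3 to -0.571. These values describe 18 libraries that fall into 6 groups and share their unstarved libraries, media and depth, and carry no test.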

How the data were processed

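RNA-seq libraries were directional poly(A) libraries read as 2 × 43 bp, per the labels' protocols. The submitters' processing notes name STAR 2.7.4a and HTSeq among the tools, beside bcl2fastq, FastQC 0.11.7, R 4.0.3, DESeq 1.30.1 and DESeq2, and the build GRCm38. Not given in the sources used here are the annotation release, the strand setting and the treatment of reads that map to several genes. The deposited tables used here hold raw whole-number counts per gene, 1 table per genotype with 9 libraries each. The authors' deposited normalized tables hold a signal, the count divided by a size factor per library, and entered no test. Of 55471 identifiers, 55230 matched a symbol in GENCODE vM21.

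Counts were tested in R 4.3.3 with edgeR 4.0.16, beside statmod 1.5.0 and limma 3.58.1, using filterByExpr, TMM scaling, robust quasi-likelihood fit, Benjamini-Hochberg adjustment over all genes tested, and a call at an adjusted p under 0.05. Comparisons within a genotype used its 9 libraries (16140 genes in Wt, 16369 in Gcn), and those between genotypes and the interactions all 18 (16924 genes). All 10 members passed the filter on low counts in each fit. Each SE was obtained as |log2 fold change| / √F. CPM per kb uses the union of exons in GENCODE vM21. Correlations used log2 CPM with a prior count of 2. Alternatives were DESeq2 1.42.0, limma-voom, scaling by library size alone, no filter, the replicate block without and with a GC correction, other sets of groups, each library left out and, added later, near-identical copies summed (genes of the tables that hold at least 10% of a member's 43-base stretches and overlap no member). Separate cultures are not named in the labels, so the p-values reflect no more than how these particular samples vary, and that variation may be technical. Replicates of a group differed by a chi-square of 7.49 to 35.7 per gene, so none was a repeat of another library.

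Groups share replicate numbers in the labels. Same-numbered Gcn libraries deviated together from their group means (r across genes of 0.18 to 0.485 in every pair), as did those of Wt Arg and Wt Leu (0.166 to 0.285). These comparisons were counted as paired. Libraries of different numbers ran from -0.383 to 0.217 in Gcn and from -0.239 to -0.005 between Wt Arg and Wt Leu. Gcn Unstarved 3 correlated more with Gcn Arg 2 (0.217) and Gcn Leu 2 (0.206) than with Gcn Arg 3 (0.18) and Gcn Leu 3 (0.2). For that library the check does not bear out the number. Wt Unstarved was not counted as paired with the starved Wt groups, although its same-numbered r (0.049 to 0.201) overlapped the values above. Each of those r was also above every r of different numbers between these groups (-0.176 to -0.004). The pairing thus comes from the numbers in the labels and only in part from this check.

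The genes named are all members, Eif2ak4, Hsf1 and Hsf2, up to 3 called genes of each list with the greatest change in a comparison, and the 5 genes of the most like pattern. Copies and overlapping genes were named because a member shares reads with them. The members and lists were chosen with earlier results of these data known.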

Additional observations from a re-analysis of the deposited data

Results flagged for a closer look

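Genes of the chaperone lists, none of them a member, whose starvation response differed between the genotypes are given here, as tested by the interaction (log2 change in Gcn minus log2 change in Wt, edgeR's quasi-likelihood test, adjusted over 16924 genes). For arginine these were Herpud1, an ER membrane protein of protein quality control (-3.08, SE 0.18, adjusted p = 1.34e-09), Hspb6 (-0.99, SE 0.20, adjusted p = 0.00961), Hspa13 (-0.61, SE 0.16, adjusted p = 0.0392), Hspa9, the mitochondrial HSP70 (-0.60, SE 0.09, adjusted p = 0.000452), Pdia4 (-0.56, SE 0.09, adjusted p = 0.00142), Canx (-0.52, SE 0.11, adjusted p = 0.00939), Hmox1 (-0.47, SE 0.12, adjusted p = 0.0462) and Cct7 (-0.41, SE 0.10, adjusted p = 0.0414). For leucine they were Herpud1 (-2.76, SE 0.18, adjusted p = 1.09e-08) and Hspb6 (-0.89, SE 0.20, adjusted p = 0.0355). Herpud1 rose in Wt Arg (1.84, SE 0.14) and Wt Leu (1.13, SE 0.14) and fell in Gcn Arg (-1.23, SE 0.12) and Gcn Leu (-1.62, SE 0.12), each against the unstarved cells of its genotype. Groups of 3 libraries are too small for a search for single outlying samples.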

How the results depend on the processing

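Of 30 calls of single members in the 9 comparisons of the design, 23 were kept under every other setting listed at the outset, leaving out single libraries aside, and 7 were lost in at least 1. Over all 11 comparisons, 27 of 39 calls were kept whichever library was left out. The low counts of Hspa1a and Hspa1b, and 3 libraries a group, limit the precision.

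Numbers of members called moved as follows. In Gcn Leu vs Gcn Arg the main count of 1 became 2 with DESeq2, 0 with limma-voom, 4 without the filter on low counts, 2 without the 3 Gcn libraries numbered 1, 0 with only the compared groups and 4 with all 6 groups in the model. In Wt Leu vs Wt Arg the count was 1 with all 6 groups, and for the arginine interaction 2 with DESeq2 and 2 without the filter. With single libraries left out, counts were 5 to 6 in Wt Arg, 3 to 5 in Wt Leu, 6 to 8 in Gcn Arg, 3 to 5 in Gcn Leu, 1 to 2 in Wt Leu vs Wt Arg, 0 to 2 in Gcn Leu vs Gcn Arg, 3 to 5 for the unstarved genotypes and 0 for both interactions.

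The replicate block raised the counts to 8 in Gcn Leu (8 with the GC correction) and 5 in Gcn Leu vs Gcn Arg (5). It raised them to 6 for the arginine interaction (5) and 3 for the leucine interaction (4), where not all Wt groups were counted as paired. Wt Leu had 7 with the block and GC correction. Calls over all genes rose as well, to 6651 in Gcn Leu (7292 with the GC correction) and 4362 in Gcn Leu vs Gcn Arg (5069). They rose to 2505 for the arginine interaction (2393) and 1878 for the leucine interaction (1869). In Wt Leu they rose to 6385 with the block and GC correction. Wt Unstarved and starved Wt libraries of 1 number correlated at 0.049 to 0.201, and those of different numbers at -0.176 to -0.004. Same-numbered libraries of the unstarved genotypes correlated at -0.159 to 0.029. Beyond the calls given with the results, the block changed Hsph1 in Wt Leu (-0.20, adjusted p = 0.0126) and Bag3 in Gcn Leu vs Wt Leu (0.26, adjusted p = 0.0496).

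These values changed sign. With the replicate block and GC correction they were Bag3 0.07 and Hspb1 0.05 in Wt Arg, Hsp90aa1 -0.01 and Hspb1 0.04 in Wt Leu, Hspb1 -0.01 in Wt Leu vs Wt Arg, Hspa8 -0.03 between the unstarved genotypes, and Dnaja1 -0.01 and Hspb1 0.06 in Gcn Leu vs Wt Leu. With library size alone they were Hsp90ab1 0.04 in Gcn Leu, Hspa8 -0.01 in Gcn Leu vs Gcn Arg, Bag3 -0.03 between the unstarved genotypes, Hsp90ab1 0.06 for the leucine interaction, Hsph1 0.04 in Gcn Arg vs Wt Arg and Hsp90aa1 0.01 in Gcn Leu vs Wt Leu. Hsp90ab1 was 0.01 for the leucine interaction without the filter, and Hspa8 was -0.01 in Gcn Leu vs Gcn Arg with copies summed. Without the 3 Gcn libraries numbered 1, Bag3 was -0.05 between the unstarved genotypes, Hsph1 0.01 in Gcn Arg vs Wt Arg, and Hsp90aa1 0.11 and Hspb1 0.01 in Gcn Leu vs Wt Leu.

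With single libraries left out, signs changed for Bag3 (-0.10 to 0.04) in Wt Arg, Hsp90aa1 (-0.01 to 0.14) and Hsp90ab1 (-0.08 to 0.01) in Wt Leu, Hspa8 (-0.03 to 0.05), Hsp90aa1 (-0.11 to 0.18) and Hspb1 (-0.14 to 0.04) in Gcn Leu vs Gcn Arg, and Bag3 (-0.06 to 0.09) between the unstarved genotypes. They also did for Dnajb1 (-0.02 to 0.21) in the arginine and Hsp90ab1 (-0.06 to 0.05) in the leucine interaction, Hsph1 (-0.07 to 0.05) and Hspb1 (-0.02 to 0.17) in Gcn Arg vs Wt Arg, and Dnaja1 (-0.04 to 0.23), Hsp90aa1 (-0.16 to 0.10) and Hspb1 (-0.16 to 0.01) in Gcn Leu vs Wt Leu. The cause was not tested.

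Scaling by library size alone moved the median of all genes in Gcn Arg by over 0.1, to 0.11. Genes called higher and lower became 3449 and 1397 in Gcn Arg (2339 and 2244 with TMM), 2609 and 1066 in Gcn Leu (1920 and 1641), 610 and 781 in Gcn Leu vs Gcn Arg (760 and 635), 3125 and 2362 in Gcn Arg vs Wt Arg (2500 and 2830), 298 and 162 for the arginine interaction (105 and 285) and 80 and 77 for the leucine interaction (26 and 113).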
